A study of Mus musculus with 2 samples.

Results

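The genes described here are 10 genes of the cellular response to low oxygen, chosen by symbol from the 32285 genes of the deposited count tables: Hif1a, Epas1, Egln3, Vegfa, Adm, Slc2a1, Pfkfb3, Ldha, Pdk1 and Bnip3. Each symbol matched 1 gene. The rule that chose them names the genes and uses no measured value, although it was set with earlier results of these data known.

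When oxygen is plentiful, prolyl hydroxylases such as the product of Egln3 mark the HIFα proteins for destruction through the von Hippel-Lindau protein, so that the proteins made from Hif1a and Epas1 are short-lived. When oxygen falls, the HIFα proteins persist, pair with ARNT, and bind short DNA elements near genes for vessel growth, glucose uptake, glycolysis and mitochondrial turnover. Much of the control of HIFα is therefore exerted on protein stability, and the RNA of its targets is the usual transcript readout, while the brain depends on a steady supply of oxygen and glucose that a subarachnoid haemorrhage (SAH) can interrupt.

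Nuclei of the Normal group and of the SAH group were sequenced as 1 library each. All animals were male mice, aged 6 to 8 weeks per the labels, and tissue of 3 mice was pooled for each library. The strain was C57BL/6J by the methods text, which gives an older age than the labels do. SAH was produced by endovascular perforation and the brains were taken 12 h later, whereas the labels of the Normal group name no operation and the study calls its control sham, so whether the Normal mice were operated on is not settled. The SAH file held more nuclei than the Normal file, the reverse of the order that the study gives for its libraries, and if the files were exchanged every ratio below would change sign, which could not be checked here. The tissue came from the ipsilateral hemisphere between bregma 2.34 mm, where the medial prefrontal cortex begins, and bregma -2.18 mm, where the centrolateral thalamic nucleus ends.

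With 1 library per group there are no replicates, so no test between Normal and SAH was made. Levels are given as CPM, the UMIs (unique molecular identifiers, each standing for 1 captured RNA molecule) of a gene over all UMIs of a cell class, on a per-million scale. Every interval given is an exact 95% interval for counting error alone, and how much mice or libraries vary is not in it. A gene was compared in a class where it had at least 100 UMIs over both libraries, and a difference is said to be past 1.5-fold where the ratio of SAH to Normal exceeded that value in either direction.

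The files held 12204 nuclei and 114970719 UMIs for Normal and 18209 nuclei and 172604358 UMIs for SAH, and 78 barcode sequences occurred in both libraries. After filtering, 10955 and 15536 nuclei with a median of 6868 and 7839.5 UMIs were kept, in 46 clusters. Class names were rebuilt here from marker genes, so each is written with "-like". The 4 named classes with enough UMIs to compare were excitatory neuron-like nuclei (4454 Normal, 6367 SAH), inhibitory neuron-like nuclei (2321 and 2495), oligodendrocyte-like nuclei (1738 and 3569) and microglia-like nuclei (988 and 1203). Oligodendrocyte-like and microglia-like nuclei were shallow, with medians of 1887.5 and 2196 UMIs for the former and 1368 and 1748 for the latter. No cluster held astrocytes or endothelial cells alone, and these cells, which are prominent in the response of the brain to hypoxia, could be followed only in a mixed vascular cluster and in a few single nuclei. That cluster held 241 Normal and 267 SAH nuclei, of which 437 were not assigned to astrocytes, endothelial cells, mural cells or fibroblasts by their own markers. Its glutamatergic markers summed to 232 CPM and its GABAergic markers to 256 CPM. Its levels are thus averages over mixed nuclei and not levels of vascular cells.

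In the GENCODE annotation of GRCm38 the genes lie, with their strand, as follows. The regulators are Hif1a at chr12:73901375-73947530 (plus), Epas1 at chr17:86753700-86833410 (plus) and Egln3 at chr12:54178981-54203860 (minus), and the secreted factors Vegfa at chr17:46016993-46032369 (minus) and Adm at chr7:110627661-110629820 (plus). The genes of glucose use are Slc2a1 at chr4:119108711-119137983 (plus), Pfkfb3 at chr2:11471433-11554077 (minus), Ldha at chr7:46841475-46855627 (plus) and Pdk1 at chr2:71873224-71903858 (plus), and the mitophagy gene is Bnip3 at chr7:138890836-138909519 (minus). Another gene is annotated on the same strand across part of Hif1a, Epas1, Slc2a1 and Pfkfb3, so UMIs there can be uncertain.

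The core letters of the hypoxia response element, to which HIF binds, are ACGTG or GCGTG. They were searched on both strands in RefSeq promoter windows of GRCm38.p6, each running from 250 bases before to 50 bases after an annotated start. Windows were found for 9 of the 10 genes, and Epas1 was not matched. The letters are common, since ACGTG was in 19.6% of 32851 windows of all genes, GCGTG in 32.4%, and either in 43.8%. Of the 13 windows of the 9 genes, 11 held a match, and each of the 9 genes had at least 1 window with a match. A match is a description of the letters and not a site shown to be bound. The 150 bases before the start are shown for 4 of the 9 genes, with matches in capitals and each window read 5′ to 3′ along its gene:
Slc2a1, chr4:119108595-119108744, plus strand: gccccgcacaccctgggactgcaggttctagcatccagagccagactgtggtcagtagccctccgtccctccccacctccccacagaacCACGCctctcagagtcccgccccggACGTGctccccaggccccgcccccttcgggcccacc
Pfkfb3, upstream start, chr2:11553930-11554079, minus strand: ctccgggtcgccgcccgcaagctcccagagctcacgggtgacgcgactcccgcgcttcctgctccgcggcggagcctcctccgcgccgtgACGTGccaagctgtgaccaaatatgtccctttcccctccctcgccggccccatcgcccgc
Pfkfb3, downstream start, chr2:11502091-11502240, minus strand: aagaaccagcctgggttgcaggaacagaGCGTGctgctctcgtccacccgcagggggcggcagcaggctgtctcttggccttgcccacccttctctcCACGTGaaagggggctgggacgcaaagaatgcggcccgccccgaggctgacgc
Ldha, chr7:46845654-46845803, plus strand: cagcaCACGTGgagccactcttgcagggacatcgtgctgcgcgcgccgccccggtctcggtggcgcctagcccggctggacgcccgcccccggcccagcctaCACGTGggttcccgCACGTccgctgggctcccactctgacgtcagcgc
Bnip3, chr7:138909507-138909656, minus strand: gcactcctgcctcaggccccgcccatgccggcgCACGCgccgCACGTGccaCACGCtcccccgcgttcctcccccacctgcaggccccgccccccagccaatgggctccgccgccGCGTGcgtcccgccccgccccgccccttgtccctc

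CACGTG reads the same on both strands and so counts as a match on each. With this counting, the windows shown in part above held 7 matches for Ldha, 5 for Bnip3, 2 for Slc2a1, and 1 at the upstream and 4 at the downstream start of Pfkfb3. The UMIs come from the 3′ ends of captured RNA, so they do not tell which start of Pfkfb3 was used. Vegfa is not among the genes shown: its window at the upstream start held 0 matches, and its window at the downstream start held 2.

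Across the 4 classes, 26 of the 40 gene and class pairs had 100 UMIs, and 10 of them were past 1.5-fold. In oligodendrocyte-like nuclei 7 of the 10 genes could be compared, with 1 higher in SAH (13.8% of all 9407 genes compared were higher by 1.5-fold) and 1 lower (16.4% of all). In microglia-like nuclei 3 could be compared, with 1 higher (14.8% of 6321 genes) and 1 lower (12.0%). In excitatory neuron-like nuclei 8 could be compared, with 0 higher (13.6% of 16347 genes) and 3 lower (16.8%), and in inhibitory neuron-like nuclei 8 could be compared, with 0 higher (8.38% of 13682 genes) and 3 lower (18.8%). A further class of 3 neuronal clusters that stayed unnamed (1145 and 1478 nuclei) also had 7 of the 10 genes with 100 UMIs, and its log2 ratios for Vegfa and Ldha were -0.67 (-0.90 to -0.44) and -1.33 (-1.75 to -0.91). Of the genes compared, 1 was thus higher and 1 lower past the fold in each glial class. In oligodendrocyte-like nuclei that is 14.3% each way, near the shares of all genes, and in microglia-like nuclei only 3 genes were compared. In both named neuronal classes those past the fold were lower in SAH. The median log2 ratio of SAH to Normal of the genes compared was -0.16 in oligodendrocyte-like, -0.13 in microglia-like, -0.47 in excitatory and -0.30 in inhibitory neuron-like nuclei, beside -0.04, 0.04, -0.12 and -0.19 for all genes compared in these classes.

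**Figure D1:**
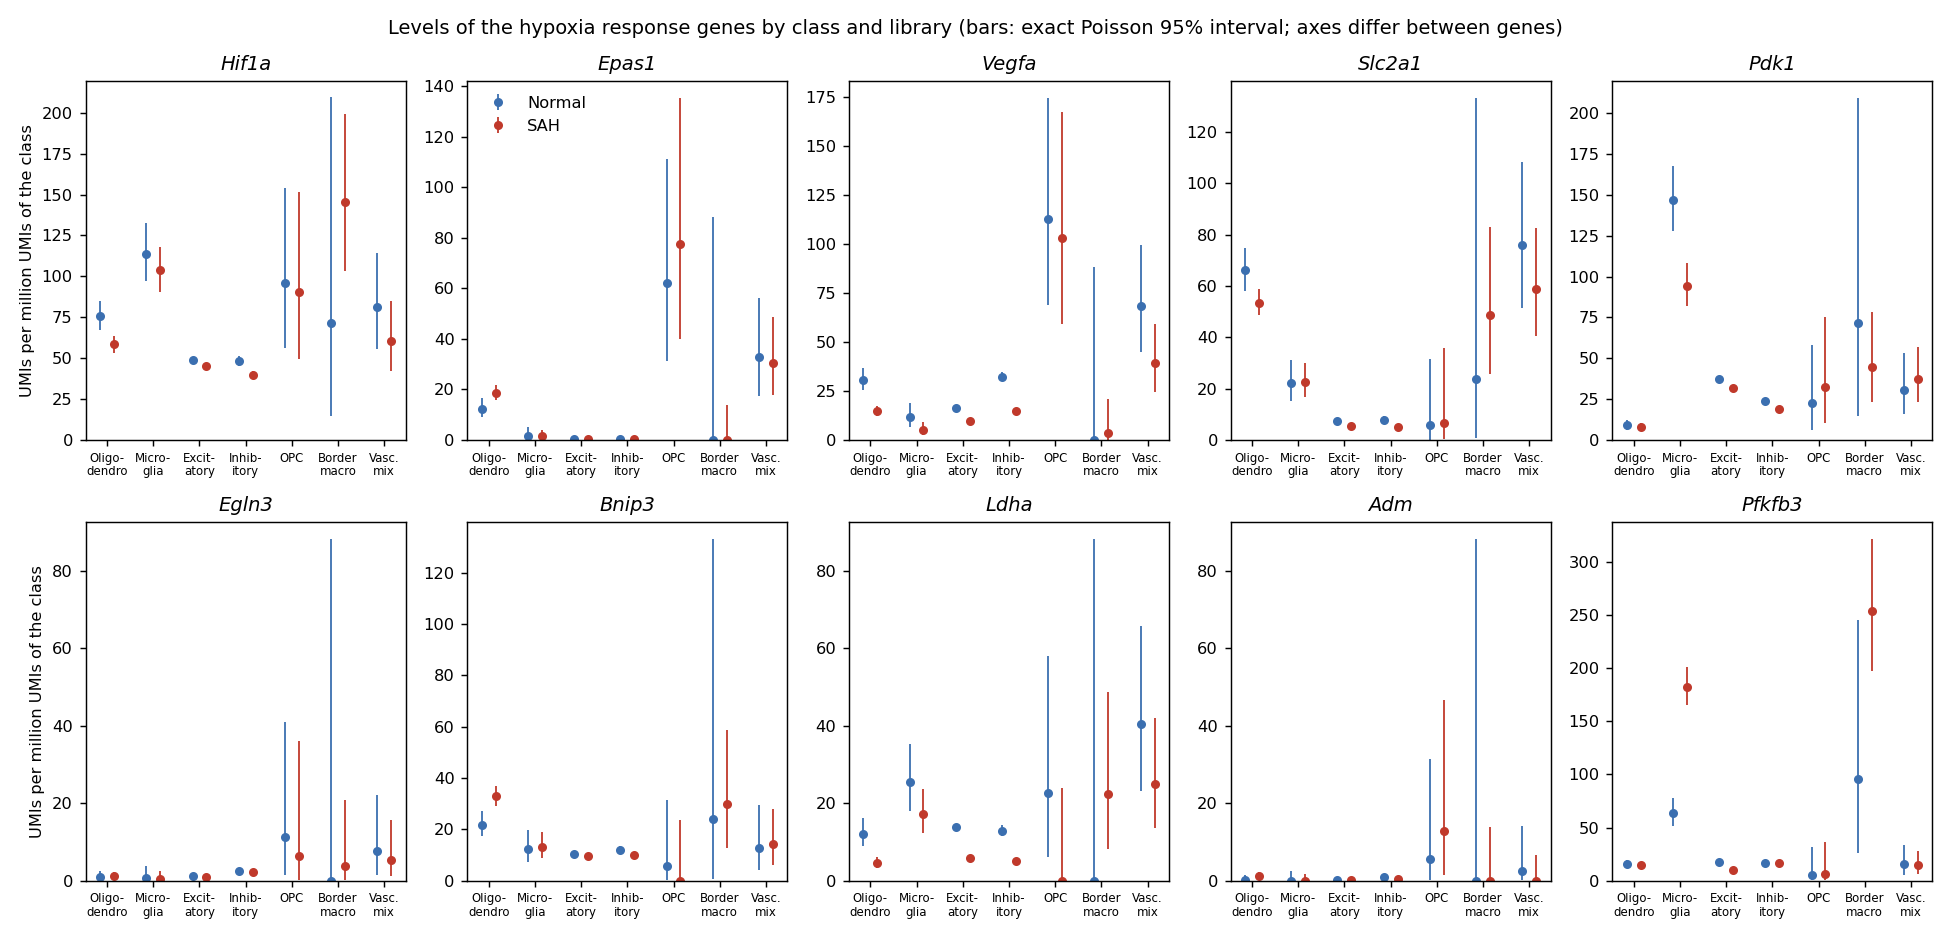
Level of each of the 10 genes (vertical axis, CPM of the class, a separate scale for each gene) in 7 cell classes, with Normal in blue and SAH in red. Points are library values and bars exact Poisson 95% intervals. Pdk1 and Pfkfb3 were high in microglia-like nuclei and Slc2a1 in oligodendrocyte-like nuclei, and the bars of the 3 small classes on the right are wide.

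Hif1a encodes the α subunit of the main oxygen-regulated transcription factor. Its 281 UMIs in Normal and 501 in SAH oligodendrocyte-like nuclei gave 75.5 CPM (66.9 to 84.9) and 58.4 CPM (53.4 to 63.8). In microglia-like nuclei it was at 114 CPM (97.0 to 132) and 104 CPM (90.6 to 118). Among these 4 classes the order was the same in both libraries, with microglia-like nuclei highest, oligodendrocyte-like nuclei next, and neurons lowest. Excitatory neuron-like nuclei were at 49.1 CPM (47.3 to 50.9) in Normal and 45.0 CPM (43.6 to 46.4) in SAH, and inhibitory neuron-like nuclei at 48.1 CPM (45.3 to 51.1) and 39.8 CPM (37.4 to 42.3). The intervals of the neuronal classes overlapped in Normal and not in SAH.

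Hif1a was lower in SAH by less than 1.5-fold in all 4 classes, with an interval that included 0 in microglia-like nuclei. The log2 ratio was -0.37 (-0.58 to -0.15) in oligodendrocyte-like, -0.13 (-0.43 to 0.16) in microglia-like, -0.13 (-0.20 to -0.06) in excitatory and -0.27 (-0.40 to -0.15) in inhibitory neuron-like nuclei. In the same order, these ratios lay at percentiles 26.1, 35.4, 49.5 and 41.7 of all genes compared. The medians of all genes compared were -0.04, 0.04, -0.12 and -0.19, so in neurons Hif1a lay near the typical gene. Within classes Hif1a was lower in SAH in 3 of 3 oligodendrocyte-like clusters, in 13 of 21 excitatory clusters with at least 50 Hif1a UMIs, and in 8 of 10 inhibitory clusters. In the opposite direction, an excitatory cluster stood at a log2 ratio of 1.89, but it held 6 Normal and 66 SAH nuclei with 1 and 67 Hif1a UMIs, and its interval ran from -0.64 to 7.21.

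Epas1 encodes the other main α subunit, known from endothelial cells and glia, and it was scarce here, with 341 UMIs over all kept nuclei. Oligodendrocyte-like nuclei held 43.0% of its UMIs in Normal and 67.5% in SAH, although they gave 3.85% and 6.12% of all UMIs. Its level there was 12.4 CPM (9.05 to 16.5) in Normal and 18.4 CPM (15.7 to 21.5) in SAH, a log2 ratio of 0.58 (0.09 to 1.08) that stayed just inside 1.5-fold. Neurons had little, with 0.379 and 0.228 CPM in the excitatory class and 0.368 and 0.513 CPM in the inhibitory class.

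The oligodendrocyte-like clusters were unequal in Epas1. The cluster led by A330049N07Rik and Anln held 4.09 CPM in Normal and 5.21 CPM in SAH. The cluster led by Opalin and Mal held 20.9 and 31.9 CPM, and the one led by Ptgds, Rhoj and Il33 held 6.16 CPM from 3 UMIs in Normal and 21.0 CPM from 55 UMIs in SAH. The last of these had 399 Normal and 1417 SAH nuclei, so the makeup of the class differed between the libraries. When each cluster had the same weight in both libraries, its nuclei over both, the log2 ratio of Epas1 was 0.92. Outside this class Epas1 was at 62.2 CPM in Normal and 77.4 CPM in SAH in oligodendrocyte precursor-like nuclei (11 and 12 UMIs), and at 32.9 and 30.3 CPM in the cluster that mixed vascular, leptomeningeal and astrocyte markers (13 and 17 UMIs), with overlapping intervals between libraries in both.

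Egln3 encodes the prolyl hydroxylase that is itself a known HIF target. It had 308 UMIs over all kept nuclei and reached 100 UMIs only in the neuronal classes among the 4. In inhibitory neuron-like nuclei it was at 2.53 CPM (1.90 to 3.29) in Normal and 2.33 CPM (1.77 to 3.00) in SAH, and in excitatory neuron-like nuclei at 1.24 CPM (0.971 to 1.56) and 0.887 CPM (0.701 to 1.11). The log2 ratios of -0.12 (-0.68 to 0.44) and -0.48 (-0.97 to -0.00) did not pass 1.5-fold. The cluster with the highest level was an inhibitory one led by Ndnf, Egfr and Kit, with 11.7 CPM from 16 UMIs in Normal and 14.0 CPM from 27 UMIs in SAH.

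Vegfa, which encodes the secreted growth factor of endothelial cells, was lower in SAH in every class in which it could be compared. Inhibitory neuron-like nuclei had 701 UMIs at 32.2 CPM (29.9 to 34.7) in Normal and 369 UMIs at 14.5 CPM (13.1 to 16.1) in SAH. Oligodendrocyte-like nuclei had 30.6 CPM (25.3 to 36.8) and 14.7 CPM (12.2 to 17.5), and excitatory neuron-like nuclei 16.2 CPM (15.2 to 17.3) and 9.70 CPM (9.06 to 10.4). In none of these 3 classes did the intervals of the libraries overlap.

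The log2 ratios of Vegfa were -1.15 (-1.33 to -0.96) in inhibitory neuron-like, -1.06 (-1.44 to -0.68) in oligodendrocyte-like and -0.74 (-0.88 to -0.61) in excitatory neuron-like nuclei. They lay at percentiles 2.28, 4.42 and 10.6 of all genes compared in these classes. The difference was spread over the clusters, since Vegfa was lower in SAH in 8 of 8 inhibitory, 13 of 14 excitatory and 2 of 2 oligodendrocyte-like clusters with at least 50 UMIs. The ratio came inside 1.5-fold in oligodendrocyte-like nuclei when each nucleus was thinned to 1000 UMIs (-0.55), and in excitatory neuron-like nuclei when centred on genes of like length (-0.52). The highest levels were found in small classes, and there the libraries were not told apart. Oligodendrocyte precursor-like nuclei had 113 CPM (69.0 to 175) in Normal and 103 CPM (59.0 to 168) in SAH, and the mixed vascular cluster 68.4 CPM (45.1 to 99.5) and 39.2 CPM (24.6 to 59.4). The precursor-like values rest on few nuclei, with 20 UMIs in 6 of 36 Normal and 16 UMIs in 8 of 39 SAH nuclei. Their intervals treat the UMIs as independent and do not cover the spread between nuclei.

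Adm, the gene for the vasodilator peptide adrenomedullin, had 76 UMIs in all and could not be compared in any class. Inhibitory neuron-like nuclei held 20 UMIs in Normal and 9 in SAH, or 0.919 and 0.355 CPM. Oligodendrocyte-like nuclei held 1 UMI in Normal and 10 in SAH, of which 8 lay in the cluster led by Ptgds, Rhoj and Il33. In microglia-like nuclei 0 UMIs were found in either library, which allows up to 2.07 CPM in Normal and 1.36 CPM in SAH, so a lower level was not detectable at this depth.

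Slc2a1 encodes GLUT1, the glucose transporter of the blood-brain barrier and of glia. Of its UMIs, 24.6% in Normal and 36.8% in SAH came from oligodendrocyte-like nuclei. These were at 66.1 CPM (58.1 to 74.9) and 53.5 CPM (48.7 to 58.6), and all 3 of their clusters, over both libraries, reached no more than 61.6 CPM. Among the 4 main classes microglia-like nuclei followed at 22.1 CPM (15.1 to 31.1) and 22.6 CPM (16.8 to 29.8), while excitatory neuron-like nuclei were at 7.48 and 5.43 CPM and inhibitory ones at 7.91 and 4.97 CPM, neuronal classes that overlapped in each library. The mixed vascular cluster was at 76.0 CPM (51.3 to 108) and 58.8 CPM (40.5 to 82.6), which overlapped the oligodendrocyte-like class. Of its Slc2a1 UMIs over both libraries, 39 came from 17 nuclei with endothelial markers and 13 from 35 with astrocyte markers. Its 437 unassigned nuclei were at 13.4 CPM (11 UMIs).

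Slc2a1 was past 1.5-fold only in inhibitory neuron-like nuclei among the 3 classes compared, with a log2 ratio of -0.67 (-1.01 to -0.33). The ratio was -0.46 (-0.65 to -0.27) in excitatory neuron-like and -0.30 (-0.53 to -0.07) in oligodendrocyte-like nuclei, and these intervals overlap that of the inhibitory class. The call in the inhibitory class was lost without doublet removal (-0.54), when centred on all genes (-0.48) or on genes of like length (-0.44), and when thinned (-0.26). Slc2a1 was lower in SAH in 8 of 8 excitatory and 3 of 3 oligodendrocyte-like clusters. Endothelial cells, where GLUT1 is densest, were represented by 17 nuclei over both libraries that were picked one by one by their endothelial markers. Their 20696 UMIs included 39 of Slc2a1, or 1884 CPM (1340 to 2576), and 19 of Epas1, or 918 CPM (553 to 1434), and 0 of Vegfa, Pdk1, Egln3, Adm and Pfkfb3. The interval of a count of 0 in these nuclei ran up to 178 CPM, so lower levels of these genes were not detectable.

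Pfkfb3 encodes the enzyme that makes fructose 2,6-bisphosphate, the activator of phosphofructokinase, and in microglia-like nuclei it had the largest ratio of the 26 compared. Microglia-like nuclei had 92 UMIs at 63.4 CPM (51.1 to 77.8) in Normal and 403 UMIs at 182 CPM (165 to 201) in SAH. The log2 ratio was 1.52 (1.19 to 1.87), at percentile 97.8 of the 6321 genes compared in that class. With every microglia-like nucleus cut down at random to 1000 UMIs (247 Normal and 76 SAH nuclei had fewer and were dropped), 6.61% of Normal and 14.9% of SAH microglia-like nuclei carried a Pfkfb3 UMI, against 8.40% and 24.9% before thinning. At the same depth 1.45% of Normal and 1.58% of SAH oligodendrocyte-like nuclei did, with medians of 1887.5 and 2196 UMIs before thinning.

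The border macrophage-like cluster, led by Mrc1 and F13a1, had the highest Pfkfb3 level of all clusters. It held 4 UMIs in 32 Normal nuclei, or 95.7 CPM (26.1 to 245), and 68 UMIs in 118 SAH nuclei, or 254 CPM (197 to 322). The interval of its log2 ratio of 1.41 ran from -0.01 to 3.32, so the libraries were not told apart in this cluster.

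In the microglia-like class the summed level of the 8 microglia markers was 18859 CPM in Normal and 12126 CPM in SAH, with all 8 detected in both. The markers differed in this: P2ry12, a receptor of homeostatic microglia, was at 2194 and 1098 CPM, and Ctss at 2575 and 2143 CPM. Inpp5d was the only marker of the 8 that was higher in SAH, at 1545 and 1936 CPM. Of the 5 border macrophage markers, 2 were detected in Normal and 3 in SAH, at a summed level of 24.8 and 34.8 CPM, and Cd163 and Lyve1 were at 0 UMIs in both, while F13a1 was at 3 and 43 UMIs. Of the 6 neutrophil markers, 1 was detected in Normal and 5 in SAH, and Csf3r gave most of their sum of 582 and 314 CPM, with S100a8 at 0 and 2 and S100a9 at 0 and 5 UMIs. The part of these cells in the Pfkfb3 level was not tested.

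In excitatory neuron-like nuclei Pfkfb3 was lower in SAH. It had 1000 UMIs at 17.2 CPM (16.2 to 18.3) in Normal and 897 UMIs at 10.2 CPM (9.55 to 10.9) in SAH, a log2 ratio of -0.76 (-0.89 to -0.63). It was lower in 9 of 10 clusters with at least 50 UMIs, with ratios from -2.03 to 0.33. The intervals did not separate the libraries elsewhere: inhibitory neuron-like nuclei had 16.3 and 16.6 CPM with a log2 ratio of 0.02 (-0.18 to 0.23), and oligodendrocyte-like nuclei 15.3 and 14.6 CPM with a log2 ratio of -0.07 (-0.53 to 0.41). The near-zero ratio of the inhibitory class covered clusters of both kinds, since 3 of 6 were higher in SAH and 3 lower, between -0.60 and 0.74.

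**Figure D2:**
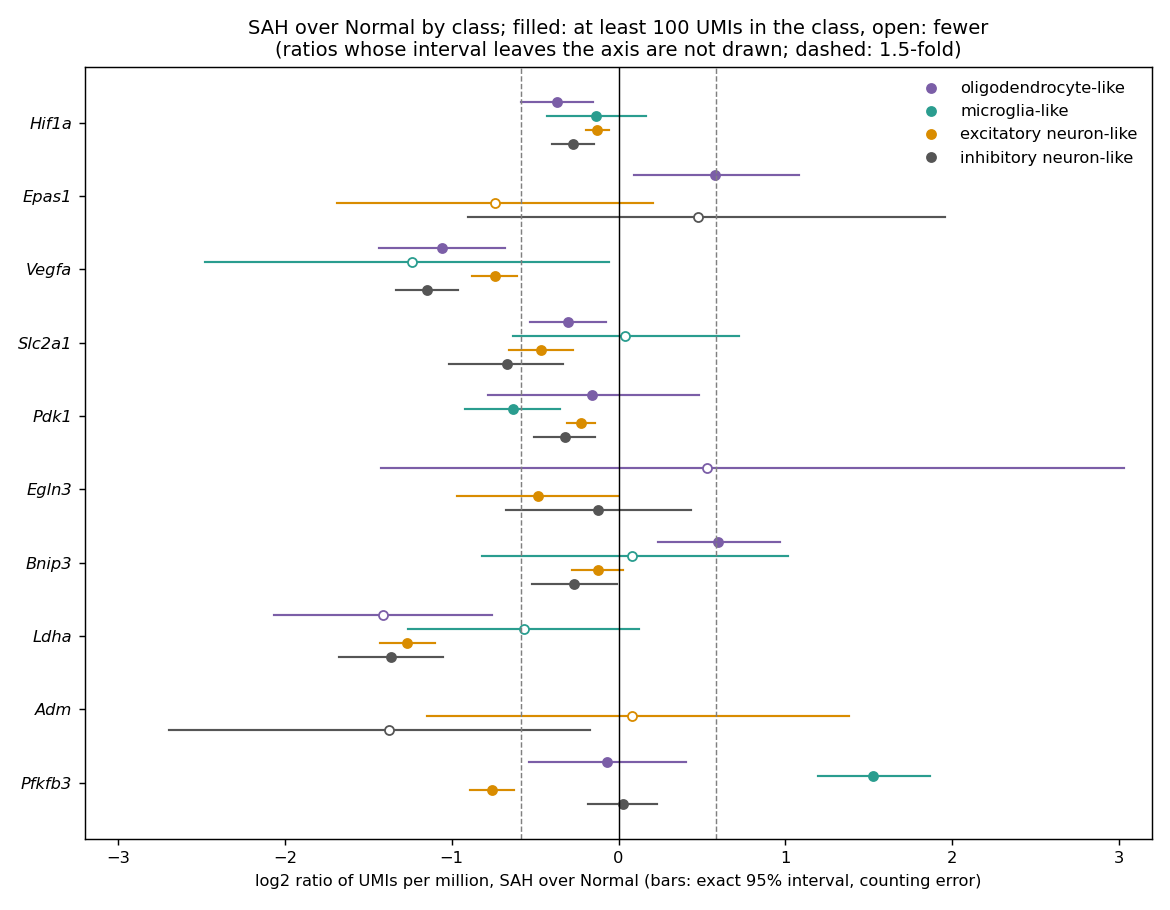
Log2 ratio of CPM in SAH over Normal (horizontal axis) for each gene in the 4 main classes, with exact 95% intervals for counting error as bars and 1.5-fold as dashed lines. Filled points have at least 100 UMIs in the class and open points fewer, and ratios whose interval leaves the axis, or with 0 UMIs in a library, are not drawn. Pfkfb3 lies at 1.52 in microglia-like and -0.76 in excitatory neuron-like nuclei, while Vegfa and Ldha lie below 0 in every class drawn.

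Ldha encodes the subunit of lactate dehydrogenase that turns pyruvate into lactate, and it was the gene with the lowest ratios in neurons. Excitatory neuron-like nuclei had 796 UMIs at 13.7 CPM (12.8 to 14.7) in Normal and 502 UMIs at 5.71 CPM (5.22 to 6.23) in SAH. Inhibitory neuron-like nuclei had 12.9 CPM (11.4 to 14.5) and 5.01 CPM (4.17 to 5.96). The intervals of the libraries were far apart in both classes, and the neuronal classes overlapped within each library.

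The log2 ratios of Ldha were -1.27 (-1.43 to -1.10) and -1.36 (-1.68 to -1.05), at percentiles 1.74 and 0.84 of all genes compared in these classes. Ldha was lower in SAH in 12 of 12 excitatory clusters with at least 50 UMIs, with ratios from -1.67 to -0.90. Oligodendrocyte-like nuclei held 45 Ldha UMIs in Normal and 39 in SAH, at 12.1 CPM (8.82 to 16.2) and 4.55 CPM (3.23 to 6.22), which is below the 100 UMIs asked for but with intervals apart and a log2 ratio of -1.41 (-2.07 to -0.76). Microglia-like nuclei had 25.5 CPM (18.0 to 35.2) and 17.2 CPM (12.2 to 23.6), which overlapped. The annotation names 2 Ldha pseudogenes, so its counts are uncertain as far as reads are shared with them.

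Ldha spans 14153 bases and Vegfa 15377 bases, and genes of like length were lower in SAH than all genes compared. The 500 compared genes nearest in length to Ldha had a median log2 ratio of -0.25 in excitatory, -0.35 in inhibitory neuron-like and -0.25 in oligodendrocyte-like nuclei. Those nearest to Vegfa stood at -0.22, -0.37 and -0.21. The ratios of both genes were lower than these medians in all 3 classes. Mitochondrially encoded RNA, which is not nuclear, was also lower in SAH, at 514 and 406 CPM in excitatory and 830 and 644 CPM in inhibitory neuron-like nuclei. Of the 5 erythroid markers, Alas2 was higher in SAH, at 8.92 and 36.4 CPM in excitatory and 11.1 and 44.3 CPM in inhibitory neuron-like nuclei, and the 4 haemoglobin genes were lower in both classes, as with Hbb-bs at 2.45 and 0.671 CPM and at 3.68 and 1.06 CPM. The sum of the 5 was 14.2 and 38.2 CPM in excitatory and 18.0 and 47.0 CPM in inhibitory neuron-like nuclei, and the part of these RNAs in the ratios was not tested.

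Pdk1 encodes a kinase that inhibits the pyruvate dehydrogenase complex. Microglia-like nuclei had the highest level, with 213 UMIs at 147 CPM (128 to 168) in Normal and 209 UMIs at 94.5 CPM (82.2 to 108) in SAH. The libraries did not overlap there, and the log2 ratio of -0.64 (-0.92 to -0.35) was past 1.5-fold, so that Pdk1 was lower and Pfkfb3 higher in SAH in the same nuclei. Thinned to 1000 UMIs per nucleus, the ratio was -0.56, inside 1.5-fold. Excitatory neuron-like nuclei followed at 37.1 CPM (35.5 to 38.7) and 31.7 CPM (30.5 to 32.9), inhibitory ones at 23.8 CPM (21.8 to 26.0) and 19.0 CPM (17.4 to 20.8), and oligodendrocyte-like nuclei were lowest at 8.87 CPM (6.1 to 12.5) and 7.93 CPM (6.16 to 10.1). No neighbours in this order overlapped in either library.

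The ratios of Pdk1 outside microglia-like nuclei stayed inside 1.5-fold, at -0.23 (-0.31 to -0.14) in excitatory, -0.32 (-0.50 to -0.14) in inhibitory neuron-like and -0.16 (-0.78 to 0.49) in oligodendrocyte-like nuclei. It was lower in SAH in 15 of 19 excitatory and 7 of 8 inhibitory clusters. Pdk1 has no other gene annotated across it on either strand.

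Bnip3 encodes a mitochondrial outer membrane protein that takes part in mitophagy. It was the single gene past 1.5-fold upward in oligodendrocyte-like nuclei, with 81 UMIs at 21.8 CPM (17.3 to 27.0) in Normal and 282 UMIs at 32.9 CPM (29.2 to 37.0) in SAH. The intervals did not overlap, and the log2 ratio was 0.60 (0.23 to 0.97), close to the limit of 1.5-fold, and it came inside that limit without doublet removal (0.44) and with nuclei classed one by one (0.51). Each of the 3 oligodendrocyte-like clusters was higher in SAH, at 0.76 (0.13 to 1.44), 0.63 (-0.24 to 1.63) and 0.36 (-0.19 to 0.92). In neurons Bnip3 was at 10.3 CPM (9.47 to 11.1) and 9.42 CPM (8.79 to 10.1) in the excitatory class and at 12.0 CPM (10.6 to 13.6) and 10.0 CPM (8.82 to 11.3) in the inhibitory class, which overlapped between libraries in both. The log2 ratios were -0.13 (-0.28 to 0.03) and -0.27 (-0.52 to -0.01).

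Within oligodendrocyte-like nuclei, Bnip3 was thus past 1.5-fold upward and Vegfa downward, while Epas1 (0.58), Hif1a (-0.37) and Slc2a1 (-0.30) stayed inside 1.5-fold with intervals that excluded 0. The summed level of the 9 oligodendrocyte markers in this class was 23832 CPM in Normal and 12391 CPM in SAH, with all 9 detected in both. The 6 inhibitory neuron markers were at 2426 and 2833 CPM, of which Erbb4 gave 2273 and 2573 CPM. The 8 excitatory neuron markers were at 164 and 144 CPM, the 8 microglia markers at 116 and 99.5 CPM and the 10 astrocyte markers at 219 and 174 CPM, and all of them were detected in both libraries. The 10 endothelial markers summed to 5.64 CPM with 7 detected in Normal and 11.1 CPM with 8 detected in SAH. Their part in the ratios was not tested.

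**Figure D3:**
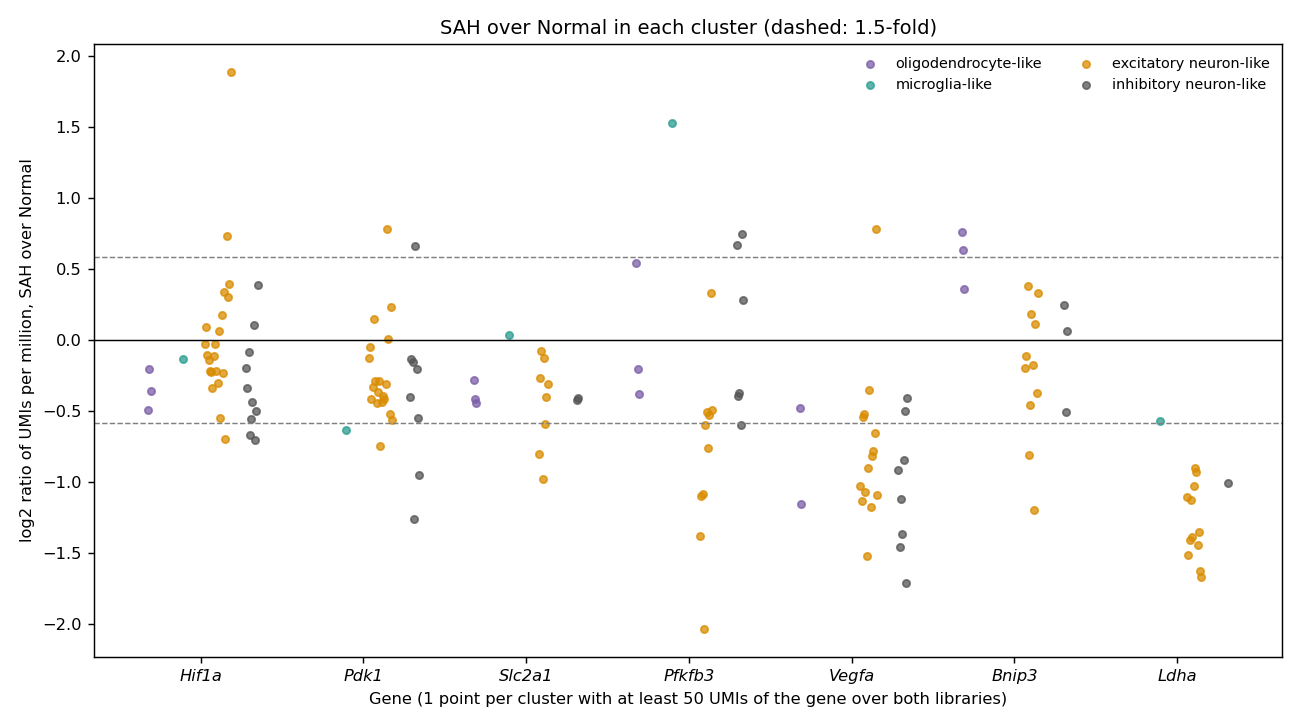
Log2 ratio of CPM in SAH over Normal (vertical axis) in each cluster with at least 50 UMIs of the gene over both libraries, for 7 of the genes (horizontal axis), coloured by class, with 1.5-fold as dashed lines. Ldha lies below 0 in every cluster drawn, Vegfa in all but 1, and Bnip3 above 0 in all 3 oligodendrocyte-like clusters, while Pfkfb3 spreads from -2.03 in an excitatory cluster to 1.52 in the microglia-like cluster.

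The level of each gene over the clusters of both libraries was compared with that of other genes as log2(CPM + 1) over 86 points, 42 from Normal and 44 from SAH. These points share library, depth and free RNA, so the correlations are descriptions. Epas1 was most like Il33 (Pearson r = 0.82), Ptgds (0.78) and Bcas1 (0.78), and Slc2a1 most like Cd9 (0.81), Sypl (0.80) and Apoe (0.80). Ldha was most like Calm2 (0.79), Htra2 (0.77) and Wdr13 (0.75), and Vegfa most like Cox7b (0.74), Mdh1 (0.71) and Tecr (0.71). The patterns of the remaining genes were less closely matched or as close, with Bnip3 most like Rbm27 (0.73), Hif1a most like Ubap2l (0.72), Pdk1 most like Tbc1d1 (0.70), Pfkfb3 most like Abhd12 (0.63), Adm most like Acsl3 (0.55) and Egln3 most like Egfr (0.54).

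Another 93 genes of the same pathway, in 5 lists, were measured beside the 10. In oligodendrocyte-like nuclei 55 of them could be compared, with 7 higher in SAH past 1.5-fold (12.7%, beside 13.8% of all genes) and 13 lower (23.6%, beside 16.4%). In microglia-like nuclei 4 of 32 were higher (12.5%, beside 14.8%) and 4 lower (12.5%, beside 12.0%). In excitatory neuron-like nuclei 3 of 72 were higher (4.2%, beside 13.6%) and 13 lower (18.1%, beside 16.8%), and in inhibitory neuron-like nuclei 3 of 67 were higher (4.5%, beside 8.38%) and 21 lower (31.3%, beside 18.8%).

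The genes of HIF and its regulation were also set beside all genes. In oligodendrocyte-like nuclei 2 of 12 were higher (16.7%, beside 13.8% of all genes) and 0 lower (beside 16.4%). In microglia-like nuclei 1 of 5 was higher (20%, beside 14.8%) and 0 lower (beside 12.0%). In excitatory neuron-like nuclei 0 of 13 were past 1.5-fold in either direction (beside 13.6% higher and 16.8% lower). In inhibitory ones 0 of 12 were higher (beside 8.38%) and 1 lower (8.3%, beside 18.8%). Hif3a, the gene of another α subunit with forms that oppose HIF, had the largest ratio of the pathway genes compared in oligodendrocyte-like nuclei. It had 43 UMIs at 11.6 CPM in Normal and 1016 UMIs at 118 CPM in SAH, a log2 ratio of 3.36 (2.92 to 3.83). In microglia-like nuclei the gene higher was Siah1a, a ubiquitin ligase, with a log2 ratio of 0.65 (0.21 to 1.11).

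Genes of glycolysis and lactate handling were past 1.5-fold downward in 38.9% of those compared in oligodendrocyte-like nuclei (16.4% of all genes), 27.3% in microglia-like nuclei (12.0%), 23.8% in excitatory (16.8%) and 35% in inhibitory neuron-like nuclei (18.8%). Of those compared, 7 of 18 were lower and 2 higher in oligodendrocyte-like, 3 of 11 lower and 1 higher in microglia-like, 5 of 21 lower and 0 higher in excitatory, and 7 of 20 lower and 0 higher in inhibitory neuron-like nuclei, with medians of -0.24, -0.13, -0.39 and -0.43, beside -0.04, 0.04, -0.12 and -0.19 for all genes. The glycolytic enzyme Eno1 was at 26.6 CPM in Normal and 12.3 CPM in SAH excitatory neuron-like nuclei and at 23.2 and 9.50 CPM in inhibitory ones. Tpi1 had log2 ratios of -1.16 and -1.20 there, Gpi1 -1.04 in excitatory neuron-like nuclei, and Gapdh -1.47 in oligodendrocyte-like nuclei. These shares stand beside all genes, not genes of like length, and short genes were lower in SAH. Adm spans 2160 bases. The 500 compared genes nearest to it in length had median log2 ratios of -0.73 in oligodendrocyte-like and -0.63 in microglia-like nuclei. They stood at -0.49 in excitatory and -0.69 in inhibitory neuron-like nuclei. The part of gene length in the list was not tested.

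In microglia-like nuclei single genes of glucose handling differed in direction. Slc2a3, the gene of the glucose transporter GLUT3, was at 29.0 CPM (42 UMIs) in Normal and 156 CPM (345 UMIs) in SAH, a log2 ratio of 2.43 (1.97 to 2.93). Hk2, the hexokinase that phosphorylates glucose on entry, was at 403 and 178 CPM, with a log2 ratio of -1.18 (-1.36 to -0.99), and Gapdh stood at -0.89 (-1.27 to -0.52). Pfkfb3 was thus higher in SAH beside Slc2a3, with Hk2, Gapdh and Pdk1 lower. Slc2a3, Hk2 and Gapdh were named for their extreme ratios, and other genes of the same steps did not share them. Slc2a1, with 82 UMIs, was at 22.1 and 22.6 CPM. Log2 ratios were 0.50 for Pfkfb2, -0.05 for Pfkfb4, 0.21 for Pkm and -0.13 for Ldhb. Of the 11 glycolysis and lactate genes compared, 7 stayed inside 1.5-fold.

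The genes that control pyruvate dehydrogenase were few. In oligodendrocyte-like nuclei 1 of 7 was higher (14.3%, beside 13.8% of all genes) and 2 lower (28.6%, beside 16.4%). In microglia-like nuclei 0 of 2 were past 1.5-fold in either direction (beside 14.8% higher and 12.0% lower). In excitatory neuron-like nuclei 0 of 7 were higher (beside 13.6%) and 1 lower (14.3%, beside 16.8%). In inhibitory ones 0 of 6 were higher (beside 8.38%) and 2 lower (33.3%, beside 18.8%). Pdk4, a relative of Pdk1 that is also known to respond to glucocorticoids and fasting, was at 9.40 CPM in Normal and 36.0 CPM in SAH oligodendrocyte-like nuclei, with a log2 ratio of 1.94 (1.43 to 2.49). Pdk1 in the same nuclei stood at -0.16.

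The next list was of vascular ligands and receptors. In oligodendrocyte-like nuclei 0 of 4 were higher (beside 13.8% of all genes) and 1 lower (25%, beside 16.4%). In microglia-like nuclei 2 of 4 were higher (50%, beside 14.8%) and 0 lower (beside 12.0%). In excitatory neuron-like nuclei 2 of 11 were higher (18.2%, beside 13.6%) and 3 lower (27.3%, beside 16.8%). In inhibitory ones 2 of 11 were higher (18.2%, beside 8.38%) and 4 lower (36.4%, beside 18.8%). The genes higher in both neuronal classes were Angpt2, a ligand of the endothelial receptor TIE2, and Tek, the gene of that receptor. Angpt2 was at 19.9 and 43.6 CPM in excitatory and at 15.3 and 40.2 CPM in inhibitory neuron-like nuclei. Tek was at 13.8 and 40.0 CPM and at 9.79 and 22.8 CPM, in the opposite direction to Vegfa in the same nuclei. In microglia-like nuclei Angpt2 was also higher, at 8.96 CPM (13 UMIs) in Normal and 52.5 CPM (116 UMIs) in SAH, a log2 ratio of 2.55, and was named after its values were seen. Nrp2, a co-receptor of VEGF, had a log2 ratio of 0.61 (0.32 to 0.91) there. Angpt2 reached the UMI minimum in microglia-like nuclei mainly through its SAH UMIs, so being compared and being higher were not independent. With 4 genes compared, the share of 50% in microglia-like nuclei cannot be read as a rise of the list.

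The last list was of other genes known to be induced by hypoxia. In oligodendrocyte-like nuclei 2 of 14 were higher (14.3%, beside 13.8% of all genes) and 3 lower (21.4%, beside 16.4%). In microglia-like nuclei 0 of 10 were higher (beside 14.8%) and 1 lower (10%, beside 12.0%). In excitatory neuron-like nuclei 1 of 20 was higher (5%, beside 13.6%) and 4 lower (20%, beside 16.8%). In inhibitory ones 1 of 18 was higher (5.6%, beside 8.38%) and 7 lower (38.9%, beside 18.8%). Ddit4, a known inhibitor of mTORC1 that also responds to stress hormones, was at 28.7 CPM in Normal and 80.7 CPM in SAH oligodendrocyte-like nuclei, with a log2 ratio of 1.49 (1.19 to 1.80). P4ha1, a collagen prolyl hydroxylase, was at 184 and 69.8 CPM in the same nuclei, and its log2 ratio was -1.40 there and -0.74 in microglia-like nuclei. Ndrg1 was at 180 and 102 CPM in oligodendrocyte-like nuclei. The iron carrier gene Trf was higher in SAH in excitatory (9.78 and 23.7 CPM) and inhibitory (12.2 and 21.1 CPM) neuron-like nuclei, and Zfp395 lower in the inhibitory class (8.87 and 3.98 CPM).

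**Figure D4:**
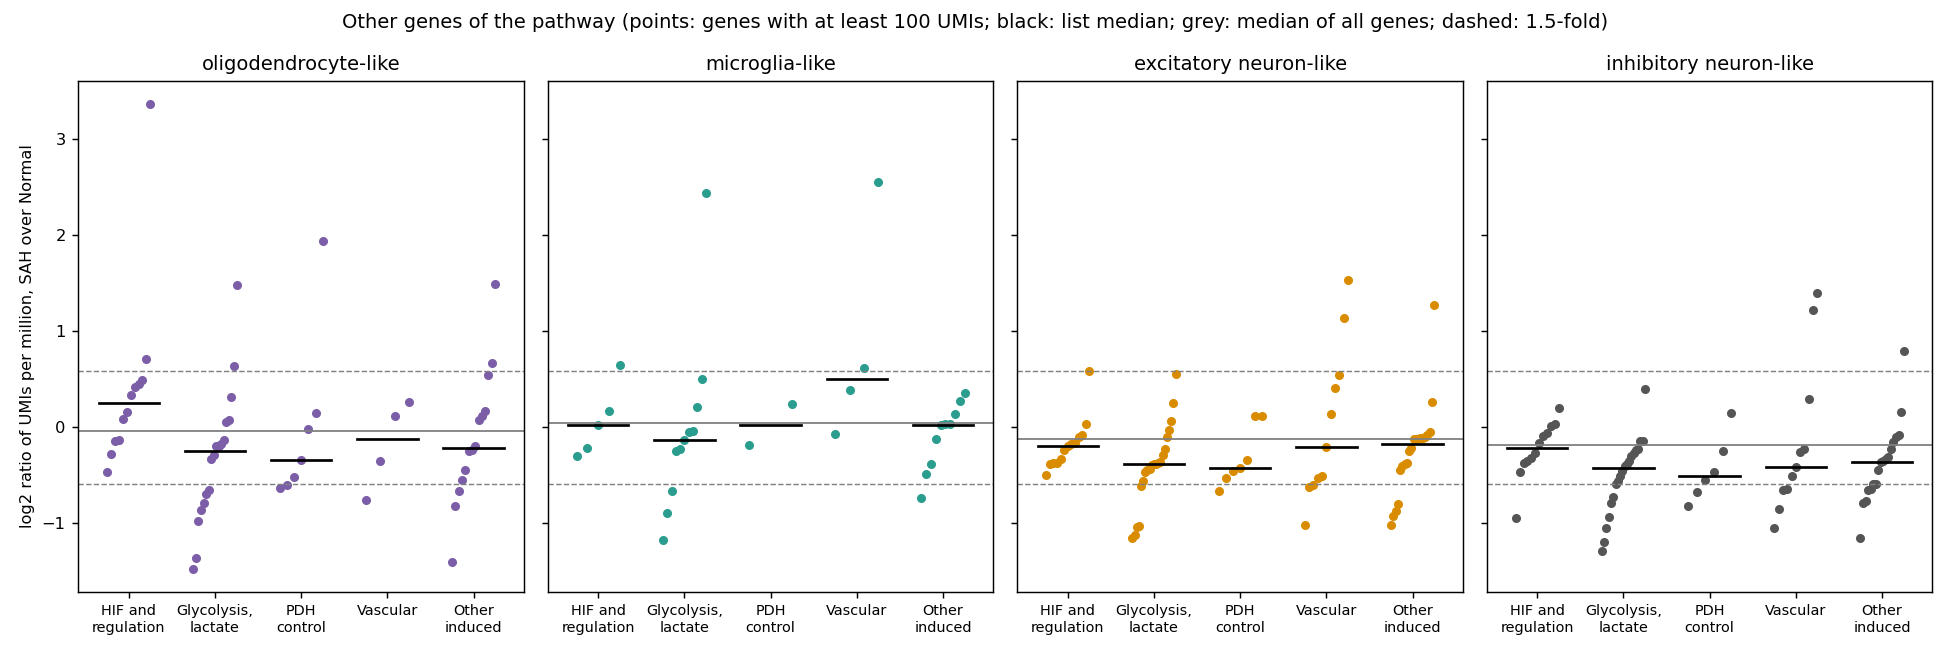
Log2 ratio of CPM in SAH over Normal (vertical axis) of the genes of 5 pathway lists (horizontal axis) in the 4 main classes, 1 panel each. Points are genes with at least 100 UMIs in the class, black bars the list medians, grey lines the median of all genes compared and dashed lines 1.5-fold. Hif3a at 3.36 is the highest point of the oligodendrocyte-like panel, and the glycolysis and lactate list has its median below the grey line in all 4 panels.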

How the data were processed

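The deposited files are 10x Genomics 3′ single-nucleus UMI counts, raw and not normalized, for 32285 genes and 2 libraries, each from 3 pooled mice. The authors aligned reads to the 10x mm10 reference (GRCm38), counted intronic reads and called nuclei with Cell Ranger; the file headers give version 6.1.2 and the submitters' processing notes 5.0.0. No annotation of nuclei was used here. The SAH library held more nuclei than the Normal library, whereas the study states more for its control, and whether files were exchanged could not be checked; an exchange would reverse the sign of every ratio.

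The limits of the study were applied: nuclei had 300 to 7000 genes, under 10% mitochondrial and under 3% haemoglobin UMIs, and fewer than 100000 UMIs, which removed 71 Normal and 29 SAH nuclei. The highest Scrublet scores (scanpy 1.11.5) were removed at 0.8% per 1000 nuclei, 1178 and 2644 nuclei. The libraries were integrated by canonical correlation in Seurat 5.3.0 under R 4.3.3 and then clustered (2000 features without the 10 genes, 25 components, resolution 1.2). Glial clusters were named from at least 3 markers among their top 100 genes by fold, and neurons by a 3-fold excess of glutamatergic or GABAergic markers, a rule set after the clusters had been seen. Of 46 clusters, 3 neuronal ones, with 1145 and 1478 nuclei, stayed unnamed.

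UMIs were summed by class and library with Python 3.11.15, numpy 2.4.6, pandas 2.3.3 and scipy 1.17.1, giving CPM with exact Poisson intervals and ratios with exact conditional binomial intervals. A count of 0 allows 3 counts. On simulated data drawn from the library sizes of each class, in which 200 genes differed 2-fold, the intervals held the true ratio for 95.7% of 9407 genes in oligodendrocyte-like and 95.5% of 6321 genes in microglia-like nuclei. The changed genes were past 1.5-fold in 99% and 97% of cases, the unchanged ones in 0.619% and 1.23%. The simulated counts were Poisson draws, with the same counting error that the intervals assume, so this checks the calculation alone. The draws held no spread between nuclei, mice or libraries. How often unchanged genes pass 1.5-fold in the real libraries therefore cannot be told from them. Gene spans came from GENCODE M21.

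The text names the 10 genes, the 3 genes most like each in pattern among genes with 1000 UMIs (for 6 of them the first is given), and from the 93 pathway genes the 3 highest and 3 lowest ratios per class among genes with 200 UMIs. Where most UMIs of a gene came from 1 library, passing a UMI minimum and being higher in that library were not independent. The 10 genes and the lists were chosen with earlier results of these data known. Alternatives were no doublet removal, a stricter filter, no integration, a resolution of 0.6 and nuclei named one by one. Others were centring on all genes or on 500 genes of like length, and the mean CPM per nucleus. The rest were the same cluster weights in both libraries, thinning to 1000 UMIs, minimums of 50 and 400 UMIs, and 2-fold. Each cluster weight was its number of nuclei over both libraries, leaving out clusters with few nuclei in either library. The spatial, staining, physiological and human data of the study were not analysed here.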

Additional observations from a re-analysis of the deposited data

Results flagged for a closer look

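Pfkfb3 moved in opposite directions in 2 cell classes, with a log2 ratio of SAH to Normal of 1.52 in microglia-like nuclei and -0.76 in excitatory neuron-like nuclei. The classes come from the same 2 libraries, and the difference between them was not tested, since there is 1 library per group.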

How the results depend on the processing

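No paired analysis was possible because each group had 1 library. Of the 10 ratios past 1.5-fold, all 10 kept their direction under the 10 alternatives that recompute a ratio, and 5 stayed past 1.5-fold in each of them (Ldha and Vegfa in inhibitory neuron-like nuclei, Ldha and Pfkfb3 in excitatory neuron-like nuclei and Pfkfb3 in microglia-like nuclei). Pfkfb3 in microglia-like nuclei ranged from 1.32 to 1.62. Ratios inside 1.5-fold and near 0 changed sign in places, as for Pfkfb3 in inhibitory neuron-like nuclei (-0.23 to 0.21). The number of genes higher past 1.5-fold in oligodendrocyte-like nuclei was 1 as reported. It was 0 without doublet removal, with nuclei named one by one, with at least 400 UMIs and at 2-fold (Bnip3 at 0.44, 0.51, under the minimum and at 0.60). It was 2, with Epas1 added, when centred on all genes, as a mean of nuclei, with the same cluster weights in both libraries and when thinned. The number lower there, 1 as reported, was 0 when thinned and with at least 400 UMIs, and 2 with at least 50 UMIs, where Ldha was added. In microglia-like nuclei the number lower was 0 when thinned and at 2-fold. In excitatory neuron-like nuclei, where 3 were lower, 5 were lower as a mean of nuclei and when thinned, with Slc2a1 and Egln3 added, and 1 at 2-fold. In inhibitory neuron-like nuclei 1 gene was higher when thinned, where thinning left few UMIs (Egln3 at 1.48). Another 87 counts stayed within 1.5 times the reported one. Depth limits Adm, which reached 100 UMIs in 0 of the 4 classes, Epas1 in 1 and Egln3 in 2, and the intervals do not cover differences between mice.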
